A study of Mus musculus with 13 samples.

Results

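The genes described here are 10 components of the Wnt pathway, namely the ligands Wnt4, Wnt6, Wnt10a and Wnt10b, the secreted inhibitors Wif1 and Sostdc1, the membrane ligases Rnf43 and Znrf3, the scaffold Axin2 and the transcription factor Lef1. They were found by gene symbol, and all 10 had a row among the 48709 mouse genes of the count table and were among the 16328 genes tested. RNA was measured by bulk sequencing of enamel organs, the dental epithelium that builds enamel, at postnatal day 11. The organs came from lower incisors of 5 mice heterozygous for the G357W substitution of the TGF-beta receptor Tgfbr2 (Het) and of 8 wild-type littermates with both alleles normal (WT). The substitution models Loeys-Dietz syndrome, a connective tissue disorder, and the labels name no promoter or cell type that limits the allele, so effects within the enamel organ and those of other tissues cannot be told apart. Library totals were 20266079 to 26122340 counts in Het and 18852382 to 26508410 in WT.

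Wnt ligands are secreted lipid-modified proteins that bind Frizzled receptors with the co-receptors Lrp5 and Lrp6, which stops the Axin-containing destruction complex from removing beta-catenin. Beta-catenin then joins Lef1 or a related TCF factor on DNA, and among the genes this pair switches on are inhibitors of the same pathway, such as Axin2, Rnf43 and Znrf3. Wnt signals act through all stages of tooth development, and loss of WNT10A in people is a known cause of missing teeth. The symbols were chosen by a reading of the Het-WT results of these same libraries, so their Het-WT values below are a description. Values are given as CPM, the counts scaled to a fixed library size after trimmed-mean (TMM) adjustment. Libraries carry a number pair such as 4-2 in the column headers. The first number, called the prefix here, takes the values 1, 4 and 5, and no source used here says what it stands for. There were 1 Het and 3 WT libraries in prefix 1, 2 Het and 3 WT in prefix 4, and 2 of each in prefix 5.

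The tissue label was checked against marker genes. The enamel matrix gene Ambn ranged from 125000 to 251000 CPM and the maturation-stage protease Klk4 from 112 to 206 CPM over the 13 libraries, while Sp6, a transcription factor of ameloblasts, reached at most 0.465 CPM. Genes of other tissues were present as well, with Col1a1, the collagen of bone, dentin and pulp, at 1510 to 6310 CPM. The stem cell gene Sox2 reached at most 1.08 CPM and was at 0 in some libraries. In such bulk samples, fewer cells of a type and less RNA per cell cannot be told apart.

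Stretches of promoter are shown for 5 members that the results below turn on, as a view of the DNA before their starts. RefSeq promoters (GRCm38.p6) of 300 bases were matched for 7 of the 10 genes, 11 promoters in all. Wnt10a, Znrf3 and Sostdc1 had no entry. Each stretch of 120 bases lies before a RefSeq start and in no annotated exon, is written 5′ to 3′ along the gene's strand, and has in capitals the letters of 2 motifs on either strand. The first is the TCF/LEF motif (the letters CTTTGAA, the letters CTTTGAT, the letters CTTTGTA or the letters CTTTGTT), and the second is the SMAD motif CAGAC, bound by the factors that carry TGF-beta signals. The motifs share no letters in these stretches. Wif1 (chr10:121033840-121033959, plus strand), Rnf43 at its downstream start (chr11:87699777-87699896, plus strand), Wnt10b (chr15:98778151-98778270, minus strand), Axin2 (chr11:108920174-108920293, plus strand) and Lef1 at its internal start (chr3:131156090-131156209, plus strand) read as follows.
Wif1: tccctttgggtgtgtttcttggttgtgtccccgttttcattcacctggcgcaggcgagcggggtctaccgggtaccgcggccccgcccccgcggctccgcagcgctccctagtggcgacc
Rnf43: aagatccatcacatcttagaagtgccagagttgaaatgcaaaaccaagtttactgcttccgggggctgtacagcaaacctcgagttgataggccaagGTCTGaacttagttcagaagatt
Wnt10b: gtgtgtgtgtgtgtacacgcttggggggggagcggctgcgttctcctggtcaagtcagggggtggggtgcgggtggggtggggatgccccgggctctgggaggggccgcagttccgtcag
Axin2: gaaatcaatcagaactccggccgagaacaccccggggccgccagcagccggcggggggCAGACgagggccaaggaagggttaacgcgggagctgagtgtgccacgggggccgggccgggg
Lef1: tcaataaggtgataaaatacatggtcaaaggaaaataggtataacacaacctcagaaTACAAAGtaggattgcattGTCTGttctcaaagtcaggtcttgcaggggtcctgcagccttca

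The internal Lef1 promoter was the only 1 of the 11 with a TCF/LEF match, at 147 bases before the start, against 16.9% of all 32817 promoters of that length. A SMAD match was present in 6 of the 11 promoters, which belong to Rnf43, Axin2 and Lef1 (3 of 7 genes), and in 49.6% of all promoters. The 2 most upstream Lef1 promoters overlap and count the same site. Their match and that of the upstream Rnf43 promoter lie at least partly in an annotated exon. The stretches of Wif1 and Wnt10b hold neither motif. The share of G and C was 68.3% for Wif1, 70.0% for Wnt10b and 71.7% for Axin2, against 44.2% for Rnf43 and 40.0% for Lef1. A match of letters is a description of the sequence only. Gene counts do not tell the alternative starts of Rnf43 and Lef1 apart.

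Levels of the 10 genes were compared per kilobase (kb) of exon, since longer transcripts give more counts. The length was that of all annotated exons of a gene together, so it can exceed that of any single transcript. Wif1, a secreted protein that binds Wnt ligands and keeps them from their receptors, had the highest level of the members in all 13 libraries, with a mean of 149 CPM per kb (SD 20.7, n = 13), higher than 99.0% of the genes tested. Sostdc1, a secreted antagonist of both Wnt and BMP signals, followed at 24.5 ± 4.30 CPM per kb, and Znrf3 at 23.0 ± 4.19. Sostdc1 was above Znrf3 in 8 of 13 libraries, so these neighbours did not differ beyond their spread. Wnt4 was the most abundant of the 4 ligands, at 10.6 ± 2.73 CPM per kb, below Znrf3 and above Wnt10a in every library.

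The other ligands had levels near the middle of all genes tested. Wnt10a had 3.11 ± 0.715 CPM per kb, Wnt6 2.88 ± 0.615 and Wnt10b 2.88 ± 0.905 (SD, n = 13), and Wnt6 exceeded Wnt10b in 7 of 13 libraries. The lowest levels per kb were those of Lef1 (1.62 ± 0.545 CPM per kb), Rnf43 (1.43 ± 0.259) and Axin2 (1.12 ± 0.293), and Lef1 exceeded Rnf43 in 8 of 13 libraries. Without division by length, mean log2 CPM was 3.76 for Lef1, 3.23 for Rnf43 and 2.60 for Axin2. It was 3.23 for Wnt10b, 2.92 for Wnt10a and 2.65 for Wnt6, so the place of Lef1 and Rnf43 depends on the length. The order runs from 149 to 1.12 CPM per kb, with the secreted inhibitor at one end and the feedback scaffold at the other. Of the 2 ligases that remove Frizzled receptors from the membrane, Znrf3 had the higher level per kb in every library.

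**Figure D1:**
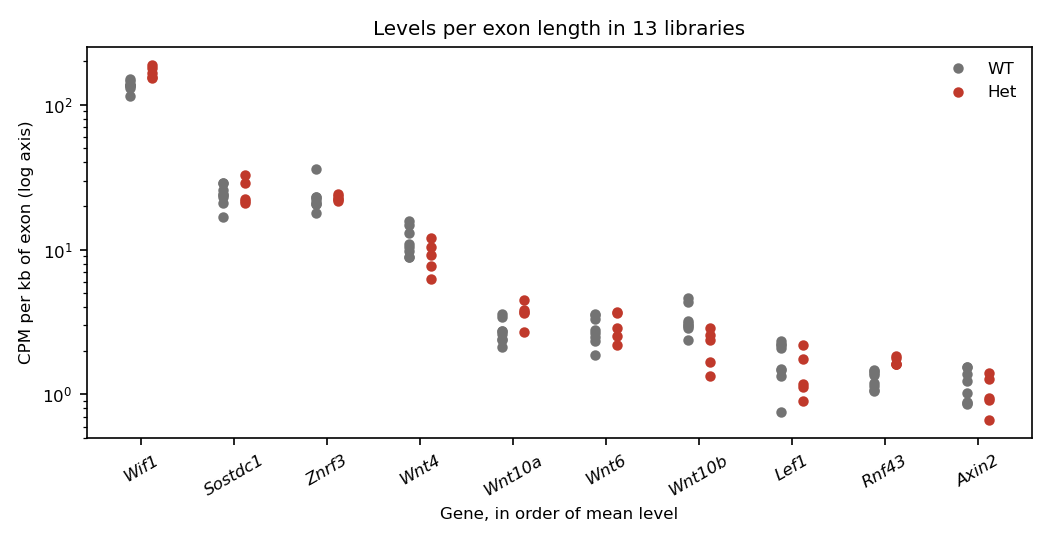
Level of each gene in CPM per kilobase of exon on a log axis, 1 point per library (WT grey, Het red), with genes in order of their mean over 13 libraries. Wif1 lies at 115 to 189 in all libraries, above every other member, and Lef1, Rnf43 and Axin2 lie lowest, between 0.663 and 2.33.

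Among the inhibitors and ligases, Wif1 and Rnf43 had higher values in every Het library than in any WT library. By the edgeR test adjusted over all genes, 0 of 10 members and 14 of 16328 genes (0.0857%) were called, with 0.0429% higher and 0.0429% lower in Het. At an unadjusted edgeR p under 0.05 there were 4 members, 3 higher and 1 lower in Het, against 6.90% of all genes (2.72% higher, 4.18% lower). DESeq2 called 1 member, Wif1, and 0.453% of all genes. The members were chosen with this contrast known, so nothing is read from their shares.

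Wif1 (ENSMUSG00000020218, chromosome 10, 121033960 to 121100650, plus strand) was at 379, 404, 437, 458 and 374 CPM in Het libraries 1-2, 4-2, 4-5, 5-5 and 5-6. In WT its lowest, median and highest values were 279, 330 and 364 CPM. All 5 Het libraries lay above the highest WT library, and the nearest were Het 5-6 and WT 5-3. Het libraries averaged 410 ± 36.4 CPM (SD, n = 5) and WT libraries 329 ± 26.1 (SD, n = 8). The fold was 1.25, or 0.32 ± 0.10 on the log2 scale (SE), with an adjusted p of 0.390 by edgeR and 0.0427 by DESeq2. The differences of mean log2 CPM within prefixes 1, 4 and 5 were 0.29, 0.37 and 0.20.

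Rnf43 (ENSMUSG00000034177, chromosome 11, 87662722 to 87735539, plus strand) encodes a membrane ubiquitin ligase that marks Frizzled receptors for removal. Its values were 11.6, 10.7, 12.1, 10.6 and 10.6 CPM in the same order of Het libraries, and 6.96, 8.37 and 9.65 (lowest, median, highest) in WT. Again the groups did not overlap, as was true of 0.490% of all genes tested. The log2 fold change was 0.42 ± 0.12 (SE), or 1.33-fold (edgeR adjusted p = 0.320). The Het-WT difference was 0.55 log2 CPM in prefix 1, 0.54 in prefix 4 and 0.14 in prefix 5, where the WT libraries were the highest of their group.

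Znrf3 (ENSMUSG00000041961, chromosome 11, 5276324 to 5444847, minus strand) encodes the closest relative of Rnf43, with the same target. Het libraries averaged 180.0 ± 7.47 CPM (SD, n = 5) and WT libraries 182 ± 42.9 (SD, n = 8). Its log2 fold change was -0.02 ± 0.13 (SE; edgeR adjusted p = 0.984). The Het values of 176, 185, 172, 175 and 190 CPM lay within the WT range of 141 to 283. The WT spread came largely from library WT 4-3 at 283 CPM, and without it the log2 fold change was 0.10. The difference between the responses of Rnf43 and Znrf3 was not tested.

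Sostdc1 (ENSMUSG00000036169, chromosome 12, 36314139 to 36318452, plus strand) had 51.5, 38.6, 58.0, 37.6 and 39.8 CPM in the Het libraries. The WT libraries ran from 29.8 to 51.3 CPM with a median of 42.7, so the groups overlapped, with Het 1-2 and Het 4-5 above every WT library. Its log2 fold change was 0.08 ± 0.14 (SE), and with 1 library left out it ran from -0.02 (without Het 4-5, the highest) to 0.14 (without Het 5-5).

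**Figure D2:**
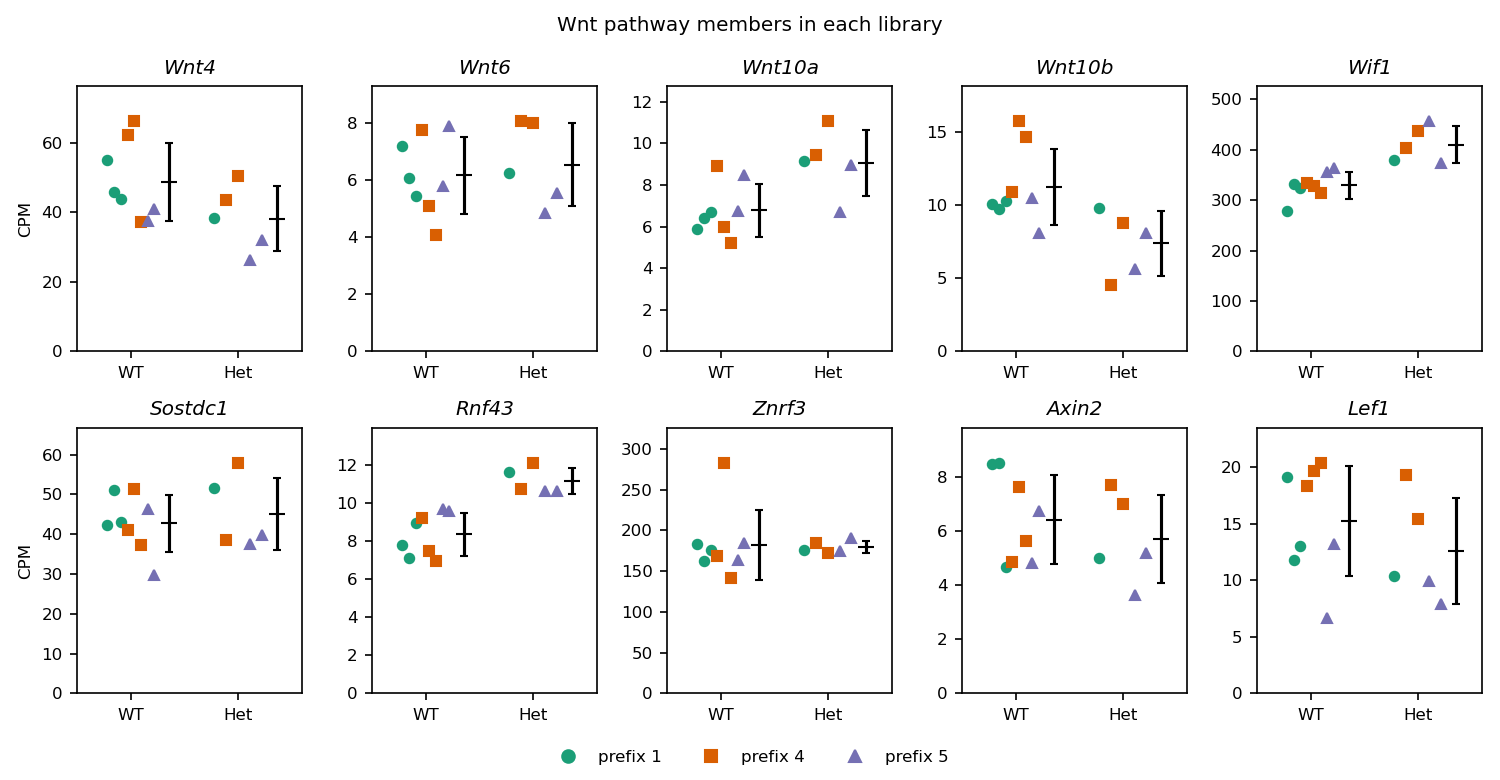
CPM of each member in every library, with WT to the left and Het to the right, colour and shape for the library prefix, and mean with SD as a black bar. The 5 Het points of Wif1 (374 to 458) and Rnf43 (10.6 to 12.1) lie above all 8 WT points, while Wnt10b has 2 Het points below every WT point.

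The 4 ligands differed in the direction of their values. Wnt10a (ENSMUSG00000026167, chromosome 1, 74791516 to 74804179, plus strand), the ligand linked to tooth agenesis, was at 9.15, 9.44, 11.1, 6.69 and 8.97 CPM in Het, against 5.21, 6.58 and 8.92 (lowest, median, highest) in WT. In 4 of 5 Het libraries it exceeded every WT library, and Het 5-5 lay within the WT range. The log2 fold change was 0.42 ± 0.15 (SE; edgeR adjusted p = 0.574). In prefixes 1 and 4 the Het mean was higher by 0.52 and 0.64 log2 CPM, and in prefix 5 by 0.04.

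Wnt10b (ENSMUSG00000022996, chromosome 15, 98770712 to 98778150, minus strand), the paralog of Wnt10a, had the lower values in Het. They were 9.80, 4.55, 8.81, 5.66 and 8.13 CPM, against 8.08, 10.4 and 15.8 (lowest, median, highest) in WT. Het 4-2 and Het 5-5 were below every WT library, and 6 of 8 WT libraries were above every Het library. At -0.61 ± 0.19 (SE; edgeR adjusted p = 0.414), its log2 fold change was the largest in size among the 10 members. It was -0.48 without Het 4-2. Prefixes 1, 4 and 5 on their own gave -0.04, -1.10 and -0.44 log2 CPM.

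Maturation-stage ameloblast markers also had lower values in Het. Of the list's 7 genes 6 were tested, and these 6 (Klk4, Amtn, Odam, Slc24a4, Wdr72 and Car6) had negative log2 fold changes, 0 of them past the edgeR threshold and 2 at an unadjusted p under 0.05. Their mean was 7.54 to 8.64 log2 CPM in Het and 8.19 to 8.85 in WT, with Het 4-2 the lowest of all libraries, as for Wnt10b. With prefix means subtracted, Wnt10b and this mean had a Pearson r of 0.89 over 13 libraries (rho 0.81). Wnt10b was chosen with its lower Het values known, and permutation within prefixes keeps the genotype difference in. These values are thus a description and no p is given. Adjusted over 60 relations of members with marker lists, the relation did not pass. Without Het 4-2 and Het 5-5, the libraries farthest from the median, r was 0.67, and without prefix subtraction it was 0.71. With genotype means subtracted within prefixes, r was 0.84. Bone markers had 8 of 8 negative log2 fold changes (0 past the edgeR threshold, median -0.24) and a mean of 5.76 to 6.29 log2 CPM in Het and 5.80 to 6.79 in WT. Skeletal muscle markers had 6 of 6 negative values with a median of -0.66, and odontoblast and pulp markers 8 of 10 with a median of -0.11, again 0 past the threshold. The bone list and the odontoblast list share Col1a1 and Ibsp, so their counts are not separate. The mean of the muscle list was 1.66 log2 CPM in Het (SD 1.39) and 1.73 in WT (SD 1.67), with WT 1-4 the highest at 4.83. The groups thus hardly differed in this mean. The mean level of the odontoblast list was higher in Het, 7.31 against 7.23 log2 CPM, so its mean and its median differ in sign. The part of these lists in the Het-WT value of Wnt10b was not tested.

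Wnt4 (ENSMUSG00000036856, chromosome 4, 137277489 to 137299726, plus strand) was at 38.2, 43.4, 50.5, 26.4 and 32.1 CPM in Het and at 37.2, 44.7 and 66.3 (lowest, median, highest) in WT. The 2 Het libraries of prefix 5 lay below every WT library, and 3 WT libraries lay above every Het library. The log2 fold change was -0.35 ± 0.17 (SE; edgeR adjusted p = 0.726), with -0.32, -0.19 and -0.43 log2 CPM within prefixes 1, 4 and 5. Wnt6 (ENSMUSG00000033227, chromosome 1, 74771892 to 74785322, plus strand) lies 6.19 kb before Wnt10a on the same strand. Its Het values were 6.27, 8.09, 8.00, 4.84 and 5.54 CPM, and in WT the lowest, median and highest were 4.07, 5.94 and 7.91. Both Het libraries of prefix 4 lay above every WT library and the other 3 within the WT range, and the log2 fold change was 0.09 ± 0.18 (SE). With 1 library left out it ran from 0.001 (without Het 4-2) to 0.18 (without Het 5-5). The difference of Wnt6 changed sign between prefixes, with 0.02, 0.56 and -0.38 log2 CPM in prefixes 1, 4 and 5. Gm29539, annotated on the other strand of Wnt6, had at most 12 counts, and the libraries do not keep strand.

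Axin2 and Lef1, the intracellular members, had overlapping groups and negative log2 fold changes. Axin2 (ENSMUSG00000000142, chromosome 11, 108920349 to 108950783, plus strand), the scaffold that is widely used as a readout of beta-catenin activity, was at 5.02, 7.71, 7.01, 3.65 and 5.19 CPM in Het. In WT it was at 4.70, 6.21 and 8.55 CPM (lowest, median, highest), and all Het libraries but Het 5-5 lay within that range. The log2 fold change was -0.17 ± 0.21 (SE; edgeR adjusted p = 0.893). Leaving out Het 5-5 gave -0.04, leaving out WT 1-3 gave -0.09, leaving out WT 1-1 gave -0.10 and leaving out Het 4-2 gave -0.30. It was -0.0978 with the mean of Y-linked genes as a covariate. Its difference was -0.47, 0.30 and -0.38 log2 CPM in prefixes 1, 4 and 5.

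Lef1 (ENSMUSG00000027985, chromosome 3, 131110471 to 131224356, plus strand) was at 10.4, 19.3, 15.4, 9.93 and 7.87 CPM in Het and at 6.65, 15.7 and 20.4 (lowest, median, highest) in WT. Every Het library lay within the WT range, and the log2 fold change was -0.28 ± 0.24 (SE; edgeR adjusted p = 0.849). It was -0.48 without Het 4-2, the Het library with the highest level, and -0.15 without Het 5-6, the Het library with the lowest. With the mean of Y-linked genes as a covariate it was -0.135. The annotated transcript Gm42449, on the same strand within Lef1, had up to 333 counts in a library, so part of the reads of this locus could belong to either.

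The libraries of Lef1 separated by prefix more than by genotype. All 5 libraries of prefix 4 had 15.4 to 20.4 CPM, against 10.4 to 19.1 in prefix 1 and 6.65 to 13.2 in prefix 5, so the ranges of prefixes 4 and 5 did not overlap. In an edgeR fit with genotype and prefix, Lef1 was the only member past the threshold for prefix (adjusted p = 0.0163), with log2 fold changes against prefix 1 of 0.50 for prefix 4 and -0.46 for prefix 5. Of all genes tested, 6.08% passed. The Lef1 call was lost without Het 4-2 (edgeR adjusted p = 0.0535) and kept with each of the other 12 libraries left out in turn. Wnt4, with 0.24 and -0.34, was near the threshold (edgeR adjusted p = 0.0529) and passed with the DESeq2 likelihood ratio test (adjusted p = 0.0127), as did Lef1 (0.000287). Without WT 4-4 the edgeR adjusted p of Wnt4 was 0.00730, and without WT 1-1 it was 0.0405.

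Markers of odontoblast and pulp, tissues that also express Lef1, were at a mean of 7.22, 7.32 and 7.22 log2 CPM in prefixes 1, 4 and 5, and 3 of their 10 genes passed the same test. Of the 9 stem cell and cervical loop markers, Sox2, Lgr5 and Fgf10 were not tested, so the list mean does not cover them. The 6 tested were Bmi1, Igfbp5, Lrig1, Acta2, Gli1 and Mki67, and 1 of the 6 passed. Their mean ran from 4.55 to 4.81 log2 CPM in prefix 1, 4.59 to 4.87 in prefix 4 and 4.47 to 4.56 in prefix 5, the lowest. Endothelium markers had means of 3.40, 3.42 and 3.06 log2 CPM in prefixes 1, 4 and 5, with 2 of 6 genes past the test. Skeletal muscle markers had 2.77, 1.02 and 1.49, with 0 of 6 past it. The part of these in the Lef1 values was not tested. Of the 72 other Wnt genes tested, 16 passed the test for prefix (22.2%, against 6.08% of all genes), among them Sfrp1 (edgeR adjusted p = 0.00422) and Ctnnb1 (0.0200), both named after their values were seen. The Het-WT difference of a member did not pass a test of change between prefixes (edgeR, genotype by prefix, 0 of 10 members and 0 of 16328 genes, 0.00%). At an unadjusted p under 0.05 there were 0 members and 331 genes, and limma-voom also called 0.

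**Figure D3:**
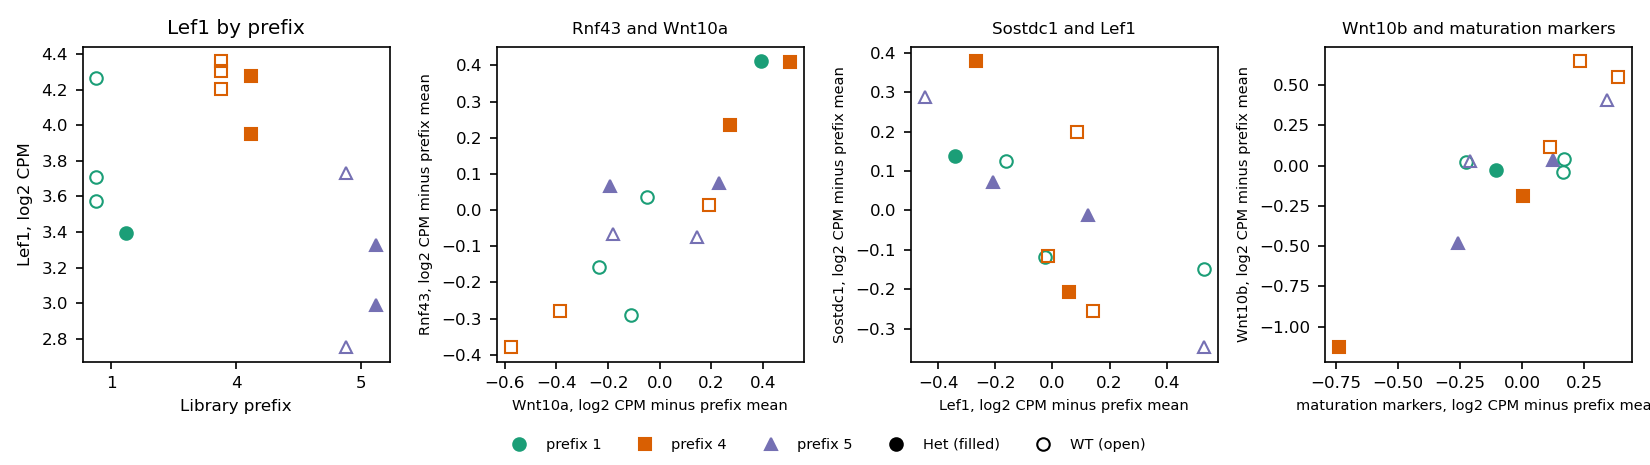
Left, Lef1 in log2 CPM by library prefix. The other panels plot pairs of values in log2 CPM after each prefix mean was subtracted, 1 point per library (Het filled, WT open). Rnf43 rises with Wnt10a (r = 0.88), Sostdc1 falls with Lef1 (r = -0.76), and Wnt10b rises with the maturation marker mean (r = 0.89, lower left point Het 4-2).

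How the members vary together across libraries was examined for all 45 pairs, with prefix means subtracted and exact two-sided permutation within prefixes. Both values of a pair share the library, its depth and its scaling. Of the 45 pairs, 2 passed after Benjamini-Hochberg adjustment (Rnf43 with Wnt10a, and Lef1 with Sostdc1), and 0 passed once genotype means within prefixes were subtracted as well. After that subtraction, values were still permuted across both genotypes of a prefix. Het 1-2, the only Het library of prefix 1, then carries no information. Passing or failing there is thus approximate and a description. Without prefix subtraction 2 passed, Rnf43 with Wnt10a and Rnf43 with Wif1. Axin2 and Lef1, the pair most often read as targets of the pathway, were not among them. A pass of a pair among Rnf43, Wnt10a and Wif1 is a description, since these were chosen with their higher Het values known.

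Rnf43 and Wnt10a had a Pearson r of 0.88 and a rho of 0.84 over 13 libraries. Both genes were chosen with their higher Het values known, and the permutation keeps the genotype difference in, so these values are a description and no p is given. Without Het 1-2 and Het 4-5, the libraries with the most extreme Rnf43, r was 0.79, and without prefix subtraction it was 0.85. With the genotype means subtracted within prefixes, r was 0.71 and the pair no longer passed.

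Lef1 and Sostdc1 moved in opposite directions within prefixes, with r of -0.76 (exact permutation p = 0.000564, adjusted p = 0.0254) and rho of -0.76 (exact permutation p = 0.00159, adjusted p = 0.0716). Without WT 1-1 and WT 5-3, r was -0.71, and with genotype means subtracted as well it was -0.74, where the pair no longer passed. Without prefix subtraction r was -0.05 (permutation p = 0.864), so the relation was not present over all libraries without regard to prefix. It passed in 5 of 13 sets with 1 library left out (r from -0.83 to -0.66).

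Rnf43 and Wif1, also chosen with their higher Het values known, had r = 0.79, which was 0.80 without prefix subtraction and 0.20 with genotype means subtracted. Wif1 and Wnt10b, of opposite sign between Het and WT, had r = -0.67, which was -0.17 with genotype means subtracted. The neighbours Wnt6 and Wnt10a had r = 0.73, which was 0.79 with genotype means subtracted, and did not pass after adjustment. Wnt10a was chosen with its higher Het values known, so its r values here are a description and no p is given. Markers of the stratum intermedium and papillary layer, the cells beneath the ameloblasts, had r = 0.79 with Wnt10a. With Wnt6 their r was 0.71 (exact permutation p = 0.0296, adjusted p = 0.533). With genotype means subtracted within prefixes, r was 0.69 for Wnt10a and 0.47 for Wnt6. None of the 60 relations with marker lists passed, and the permutation keeps the genotype difference in there as well.

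The genes most like 3 members in prefix-subtracted log2 CPM over the 13 libraries were listed among 12289 genes, as a description. For Axin2 these were Gtf3c5 (r = 0.88), the Wnt co-receptor Lrp5 (0.87) and P2ry2 (0.85). For Wif1 they were Klhl13 (0.93), Sec11c (0.92) and Nsfl1c (0.92), which had r of 0.55, 0.61 and 0.86 without prefix subtraction. For Wnt10b they were Klk4 (0.95), Tigd4 (0.90) and Pmch (0.90), with 0.78, 0.81 and 0.45 without it. Klk4 is also among the maturation markers above. The genes like Wnt10b had log2 fold changes of -0.30, -0.88 and -0.23, and those like Wif1 0.30, 0.33 and 0.19. These r values keep the genotype difference in.

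The wider pathway was read from 8 lists by role, 86 genes beyond the members, of which 72 were tested. Between Het and WT, edgeR and DESeq2 each called 0 of the 72, and 6 higher and 1 lower had an unadjusted edgeR p under 0.05 (9.72%, against 6.90% of all genes, 2.72% higher and 4.18% lower). Their log2 fold changes were positive for 32 and negative for 40, with a median of -0.01, and the median over all genes tested was -0.00. Genes left out by the filter on low counts included the ligands Wnt1, Wnt2, Wnt3, Wnt8a, Wnt8b, Wnt9b and Wnt16, with at most 17 counts in a library, and the stem cell receptor Lgr5, also with at most 17.

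The counts by role that follow include the members, which were chosen on this contrast. Of 19 Wnt ligands, 12 were tested, 7 with positive and 5 with negative log2 fold changes. The non-canonical ligand Wnt5a had the highest level of them, at 18.6 CPM per kb, and a log2 fold change of -0.10 ± 0.12 (SE). Porcn and Wls, which lipidate and export Wnt proteins, had 0.12 ± 0.14 and -0.00 ± 0.08. Of the receptors and co-receptors, 15 of 16 were tested, and the smallest p belonged to Ror1 (0.54 ± 0.24) and Fzd3 (0.34 ± 0.16), with edgeR adjusted p of 0.699 and 0.722. The highest levels in that list were Ptk7 (6.82 CPM per kb) and Fzd6 (5.99).

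R-spondins act with Lgr receptors to clear Rnf43 and Znrf3 from the membrane. Lgr4 stood at 153 CPM per kb, about the level of Wif1, with -0.34 ± 0.17 as its log2 Het-WT difference (edgeR adjusted p = 0.730), and Lgr6 stood at 7.24 CPM per kb with -0.07 ± 0.14. Rspo1 had -0.21 ± 0.20. Among 14 inhibitors tested outside the cell, 8 had positive and 6 negative values. Dkk1, which blocks Lrp5 and Lrp6, had 0.57 ± 0.21 (edgeR adjusted p = 0.574), and Lrp4, a receptor that binds Sostdc1, stood at 81.5 CPM per kb with -0.26 ± 0.21.

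Inside the cell, 12 cytoplasmic components were tested, 4 positive and 8 negative. The kinase Gsk3b (67.5 CPM per kb) had -0.16 ± 0.14 and beta-catenin itself, Ctnnb1 (25.4 CPM per kb), had 0.10 ± 0.12. The smallest p were those of Apc2 (-0.62 ± 0.38) and Gsk3a (-0.32 ± 0.21), with edgeR adjusted p of 0.782 and 0.789. Apc2 stood at only 0.122 CPM per kb, and Gsk3a at 2.30. Of 12 nuclear factors, Tcf7l2 had the highest level at 87.9 CPM per kb, far above Lef1 at 1.62, with -0.15 ± 0.17. The co-repressor Tle2 (3.91 CPM per kb) and the co-activator Pygo1 had -0.23 ± 0.14 and 0.19 ± 0.13. Among 11 feedback and target genes, 4 were positive and 7 negative, with Bambi, a decoy receptor for TGF-beta ligands (48.8 CPM per kb), at 0.28 ± 0.14 and Cd44 (76.4 CPM per kb) at -0.07 ± 0.11.

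**Figure D4:**
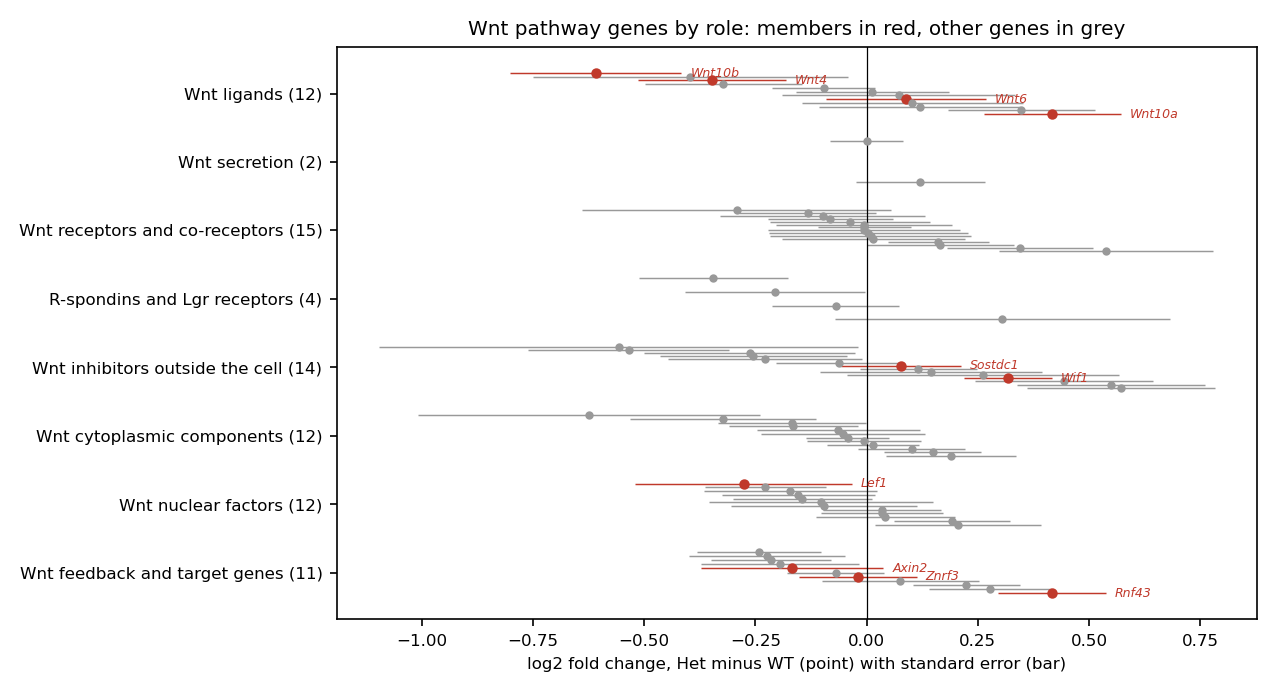
Log2 fold change between Het and WT (point) with its standard error (bar) for the 82 Wnt genes tested, by role, with the number tested in brackets. Members are red and named, from Wnt10b at -0.61 to Wnt10a and Rnf43 at 0.42, and the other genes are grey.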

How the data were processed

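Bulk RNA-seq counts of 13 libraries (5 Het, 8 WT) were used. The raw counts deposited by the authors hold 48709 mouse genes and 24 spike-in and transgene features, which took at most 0.000177% of a library and were left out. STAR 2.5.2a and GRCm38 are named in the submitters' processing notes, and no source used here names the counting tool. The libraries came from an unstranded kit, per the labels' protocols. A scaled signal deposited by the authors equals counts times 1 constant per library and was used for no test. Columns name the genotype and no replicate number, so they were assigned to genotypes. Each library was taken as 1 mouse. The p-values thus measure the spread between these libraries. All 78 library pairs differed by more than counting noise (chi-square of at least 13.7 per gene).

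Genes were filtered with filterByExpr (count minimum 10, 16328 genes) and tested with edgeR 4.0.16 in R 4.3.3 (TMM, quasi-likelihood test, robust, SE from the F statistic), with Benjamini-Hochberg adjustment over all genes at a threshold of 0.05. Log2 CPM used a prior count of 2. Alternatives were DESeq2 1.42.0, limma-voom 3.58.1, RLE and upper-quartile factors, other filters, prefix or Y-linked covariates and leaving out each library. Correlations used all 69120 permutations within prefixes, or 100000 over all libraries where prefixes were not subtracted. Exon lengths and positions came from GENCODE M21 (GRCm38). The members and lists were chosen with earlier results of these data known. Named genes are the members, in each role list the 2 of smallest p and the 2 of highest level, and the 3 genes most like Axin2, Wif1 and Wnt10b. The scripts were tested on simulated data. The Het-WT test recovered 44.8% of simulated 1.5-fold changes and 74.6% of 2-fold changes. The simulated counts for that test held no differences between prefixes, so recovery in these data could be lower. The prefix test, with prefix 5 changed, recovered 20.9% and 61.2%. Changes of such size can thus go uncalled.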

Additional observations from a re-analysis of the deposited data

Results flagged for a closer look

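Znrf3 in library WT 4-3, at 283 CPM (8.14 log2 CPM), stood apart from the other 7 WT libraries. Its gap to the next library took 0.619 of the range of the group of 8, above the critical 0.526. Of 20 combinations of member and genotype examined, this was the 1 that stood out, and chance gives about 1 in 20.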

How the results depend on the processing

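No paired analysis was possible because the columns carry no replicate number from the labels. The prefix, which both genotypes share, was fitted as a term in its place. Genes called between Het and WT numbered 14. Without a filter this became 27, with a minimum of 1 CPM in 5 libraries 25, with DESeq2 74, with limma-voom and sample weights 25, and with the prefix as a term 30. Leaving out 1 library gave 6 to 22 (6 without Het 4-2 or Het 5-6, 7 without Het 5-5, 8 without Het 1-2 or WT 1-1, 9 without WT 1-4, 22 without WT 5-1). DESeq2 called 1 member, Wif1, and the other settings called 0, leaving out 1 library included. Of the member values under all alternatives, 224 kept direction and side of the threshold and 5 changed sign. Znrf3 turned from -0.02 to 0.0061 with limma-voom, 0.0183 with sample weights, and, leaving out 1 library, ran from -0.0664 (WT 4-4) to 0.0981 (WT 4-3), with 0.0032 for Het 4-5. Sostdc1 ran from -0.0238 (Het 4-5) to 0.1379 (Het 5-5). For prefix, 992 genes and 1 member became 2140 and 2 with the DESeq2 likelihood ratio test, and 280 to 1466 genes and 0 to 2 members with 1 library left out. The lower gene counts were 400 (Het 4-2), 464 (Het 4-5), 404 (Het 5-5), 280 (WT 5-1) and 476 (WT 5-3). Genotype by prefix stayed at 0 calls with RLE factors and limma-voom. Member pairs called went from 2 to 0 with genotype means subtracted within prefixes and 0 to 3 with 1 library left out. They were 0 without Het 1-2, Het 4-2, Het 4-5, Het 5-6, WT 1-4, WT 4-4 or WT 5-1. The counts of pairs include those of Rnf43 with Wnt10a or Wif1, which are a description. Counts with genotype means subtracted are approximate, as said above. Marker list relations went from 0 to 1 with genotype means subtracted (Wnt4 and odontoblast markers, r = -0.87) and 0 to 2 with 1 library left out (2 without WT 1-1, 1 without WT 1-3). The cause was not tested.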
